A study of Mus musculus with 12 samples.

Results

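The genes described here encode trypsin-like serine proteases and kallikreins: every mouse gene whose symbol begins with Klk, with Prss and a number, or with Tmprss and a number. Of 94 such symbols in the RefSeq table, 80 had at least 500 non-CG cytosine calls in each of 12 cortex libraries, out of 19826 genes that met the same minimum. They comprise 27 Klk genes, 13 of them in the Klk1b subgroup, 36 Prss genes and 17 Tmprss genes. The rule used symbols and depth only, not methylation, but it was set with earlier results of these data known. Of the other 14 symbols, 3 fell under the minimum, with a lowest count of 200 calls for the pseudogene Klk1b7-ps, 363 for Prss34 and 368 for Prss33; the members just inside it were Prss56 at 577, Prss38 at 588 and Prss8 at 687. The remaining 11, made up of 10 Klk pseudogenes and Prss47, were not analysed here.

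All libraries were made from cortex of C57BL/6 mice by whole-genome bisulfite sequencing, in which unmethylated cytosines are read as thymine. At postnatal day 40 (P40), 4 libraries from wild-type (WT) mice were compared with 4 from mice of genotype miR29 KO, called the knockout below. At 4 months, 2 WT libraries were compared with 2 of genotype Dnmt3a mi5, whose titles name a miR29 mutation of DNMT3A. The labels do not say which miR29 genes or which part of Dnmt3a were altered, in which cells, or whether each library came from a separate animal. If they did not, the p-values below measure technical spread only.

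Proteases of this family share a catalytic triad of histidine, aspartate and serine, and most are made as inactive precursors that another protease cuts. Klk genes lie together in a cluster, which in mice holds the expanded Klk1b subgroup, and Tmprss genes encode membrane-anchored enzymes. A few members act in the nervous system, among them Klk6, Klk8 and Prss12, while most are known from pancreas, skin, airway, salivary gland, uterus or testis. In neurons the methyltransferase DNMT3A methylates cytosines outside CG dinucleotides (mCH) after birth, and the miR-29 microRNAs repress Dnmt3a. The level given throughout is the percentage of non-CG calls over the gene's transcript that were read as methylated, so it describes the DNA of the gene and not its expression.

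The closeness of the paralogs shows in the 250 bases before their starts, which were available from RefSeq for 65 of the 80 genes. All 78 pairs of Klk1b genes shared between 64.0% and 90.4% of aligned bases, with a median of 78.8%, while 273 other pairs of Klk genes shared between 42.8% and 66%, with a median of 52.4%. The pairs that the results turn on are printed in GRCm38.p6, 5′ to 3′, all on the + strand, with capitals at bases not matched by an equal base in the partner of the pair. Klk1b9 (chr7:43975811-43976060) and Klk1b22 (chr7:44112423-44112672) were 84.8% identical and had large rises. Prss29 (chr17:25318404-25318653) and its neighbour Prss28 (chr17:25308396-25308645) were 64.8% identical and had the most unlike levels of any neighbours.
Klk1b9: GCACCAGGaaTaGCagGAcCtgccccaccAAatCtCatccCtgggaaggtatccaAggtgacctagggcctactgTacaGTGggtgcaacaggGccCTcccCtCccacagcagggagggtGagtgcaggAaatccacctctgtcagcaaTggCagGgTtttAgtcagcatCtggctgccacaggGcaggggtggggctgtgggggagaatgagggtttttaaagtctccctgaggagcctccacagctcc
Klk1b22: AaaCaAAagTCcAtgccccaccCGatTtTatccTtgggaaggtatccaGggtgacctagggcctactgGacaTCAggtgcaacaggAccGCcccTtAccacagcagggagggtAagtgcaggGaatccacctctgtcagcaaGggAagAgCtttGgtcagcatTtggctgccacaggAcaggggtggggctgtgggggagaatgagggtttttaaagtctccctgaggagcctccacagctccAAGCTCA
Prss29: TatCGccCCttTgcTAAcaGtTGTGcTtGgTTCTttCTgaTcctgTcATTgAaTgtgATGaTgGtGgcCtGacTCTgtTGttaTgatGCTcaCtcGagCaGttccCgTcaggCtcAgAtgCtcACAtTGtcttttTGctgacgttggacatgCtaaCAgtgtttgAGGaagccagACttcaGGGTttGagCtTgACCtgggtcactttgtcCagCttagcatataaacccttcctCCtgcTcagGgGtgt
Prss28: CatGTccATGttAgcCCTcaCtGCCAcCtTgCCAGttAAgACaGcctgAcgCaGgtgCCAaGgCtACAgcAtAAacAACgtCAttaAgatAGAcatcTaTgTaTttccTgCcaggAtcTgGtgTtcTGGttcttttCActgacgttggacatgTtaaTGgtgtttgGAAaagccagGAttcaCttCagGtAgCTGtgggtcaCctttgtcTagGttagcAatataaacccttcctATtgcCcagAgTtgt
These stretches were not measured separately from the genes. They held few CG dinucleotides: none in Klk1b9, 2 in Klk1b22, 4 in Prss29 and 3 in Prss28. The median was 3 over the 65 genes and 2 over the 27 Klk genes, against 6 over 27025 genes with an entry. Stretches with 3 or fewer CG made up 61.5% of those of the protease genes, 77.8% of those of Klk genes and 38.1% of all. The closest paralogs are uncertain in these data, because reads from near-identical copies can be placed on either.

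Summed over 1 transcript row per gene, there were between 399563492 and 732985426 non-CG calls per library. Calls in overlapping genes may count more than once in these sums. The 4-month libraries were the shallower ones. Klk genes rested on a median of 1411 to 3180 calls per gene across groups, Tmprss genes on 14613 to 21743. Over all genes tested, the mean level was 1.39% in P40 WT, 2.16% in the knockout, 1.32% in 4-month WT and 2.33% in Dnmt3a mi5. Knockout replicate 4 was the lowest of its group over all genes, at 1.72% against at most 2.46%, and it was the lowest knockout library for 65 of the 80 protease genes. Cortex is a mixture of cells: in P40 WT the marker genes of excitatory neurons spanned 0.665% to 1.78% and those of inhibitory neurons 0.205% to 1.95%. Those of astrocytes spanned 1.98% to 2.82% and those of vessels 1.94% to 2.72%. Markers of oligodendrocytes, at 1.38% to 1.97%, and of microglia, at 1.49% to 2.35%, overlapped those of neurons. A change in methylation per cell and a change in the share of cells cannot be told apart here. In 4 libraries, 1 in each group, coverage of Y-linked genes was low. A term for it left 77 members called at P40 and 54 at 4 months. The share of all genes called with that term was not examined.

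Protease genes carried somewhat more mCH than the median gene. Their median level was 1.55% ± 0.196 (SD, n = 4) in P40 WT, 2.72% ± 0.414 (n = 4) in the knockout, 1.45% ± 0.0623 (n = 2) in 4-month WT and 2.87% ± 0.0597 (n = 2) in Dnmt3a mi5. The medians over all genes were 1.31%, 2.07%, 1.22% and 2.21% in the same order. In P40 WT 60 of the 80 lay above the median gene, and 66, 56 and 62 did in the other groups.

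**Figure D1:**
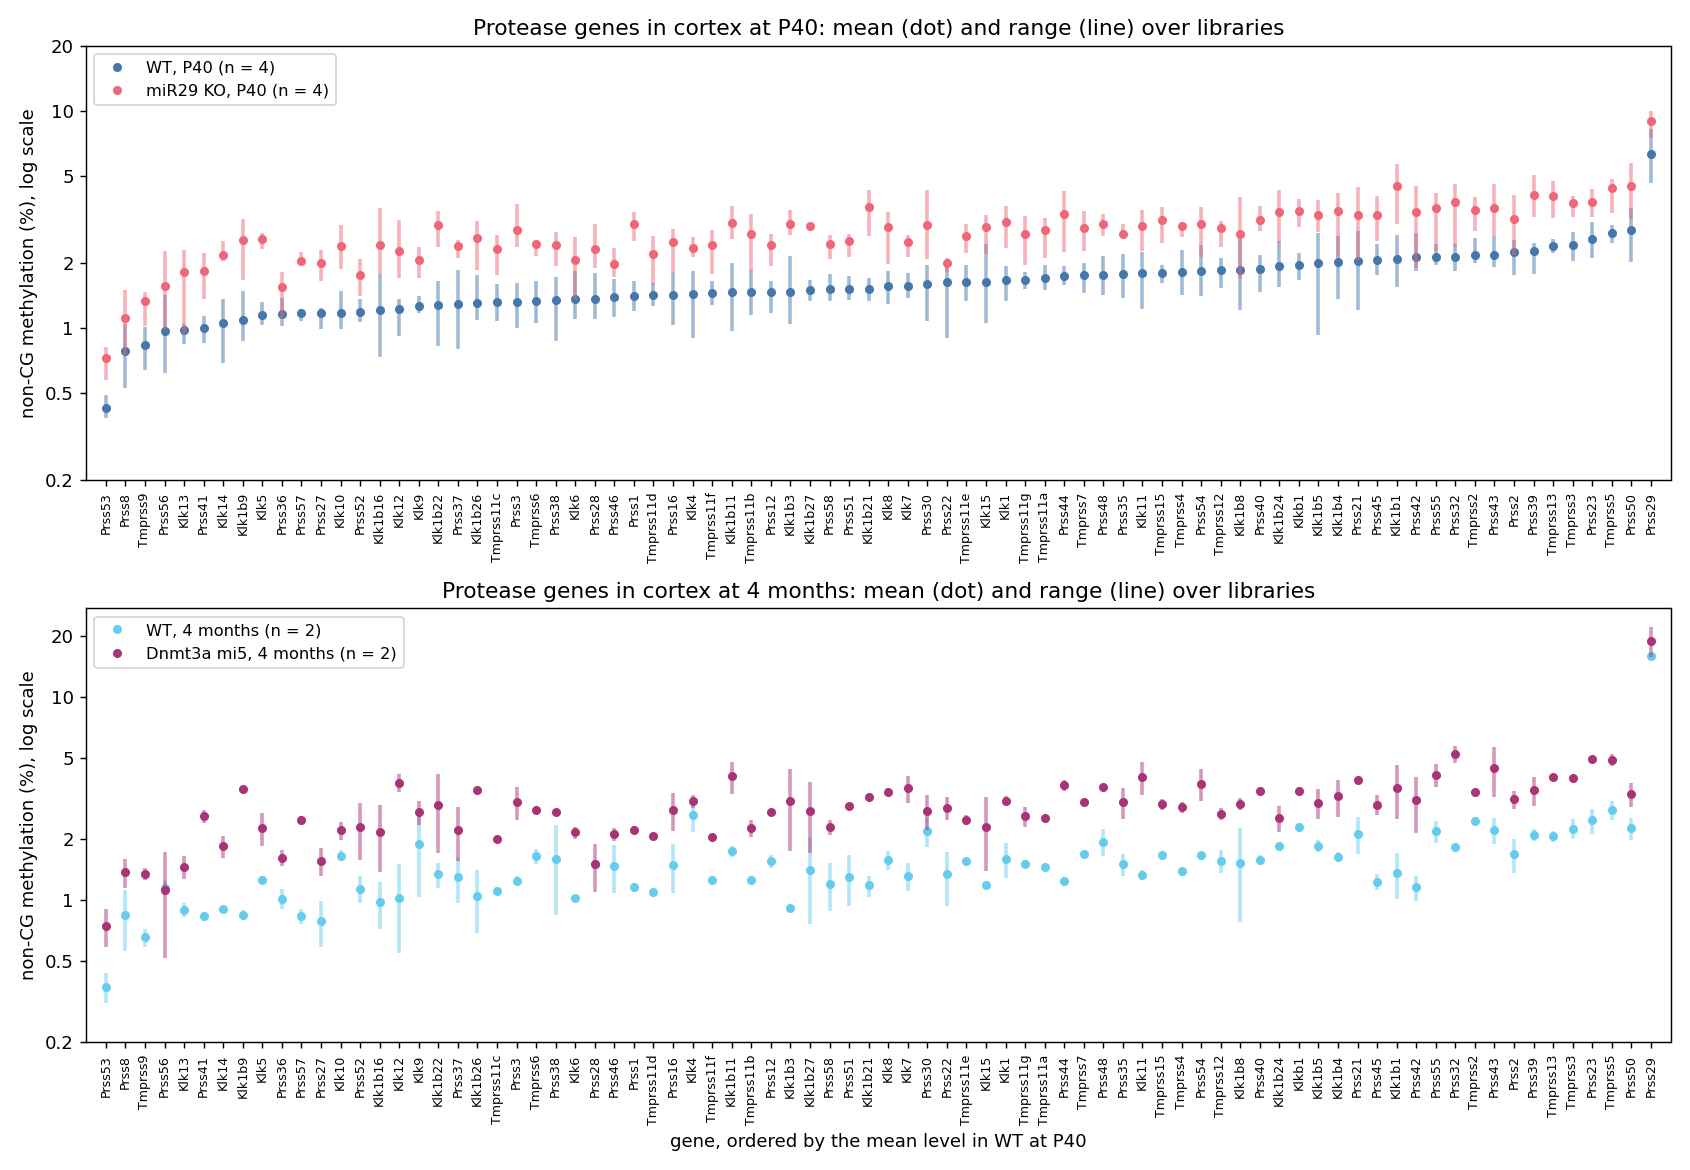
Non-CG methylation in percent on a log axis for each of the 80 protease genes, ordered by their mean in P40 WT; dots are group means and lines the range over libraries (n = 4 per group at P40, upper panel; n = 2 at 4 months, lower panel). Most genes lie between 1% and 5%, with Prss53 lowest and Prss29 far above the others in every group.

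At P40 nearly every protease gene had more mCH in the knockout. By a quasi-binomial model of the calls with limma-moderated dispersion, 77 of 80 rose at an adjusted p under 0.05 and 0 fell, while 76.5% of all genes rose and 0.0454% fell. The 3 not called were Klk1b8, Prss8 and Prss22. The median log2 odds ratio, knockout over WT, was 0.78, against 0.65 over all genes. All 4 knockout libraries lay above all 4 WT libraries in 59 of 80, where 57.1% of all genes did so, and the reverse order held in 0 of 80, against 0.0504% of all genes. By family the calls were 26 of 27 Klk genes with a median of 0.94, 34 of 36 Prss genes with 0.77 and 17 of 17 Tmprss genes with 0.74. The Klk1b subgroup had the highest median, 1.07, with 12 of 13 called.

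At 4 months 51 of the 80 rose in Dnmt3a mi5 and 0 fell, where 58.8% of all genes rose and 0% fell. All 80 odds ratios were positive, with a median log2 of 0.94 against 0.83 over all genes. Both mutant libraries exceeded both WT libraries in 72 of 80 genes, against 86.2% of all genes, and lay below both in 0, against 1.03%. The calls were 14 of 27 Klk genes, median 1.06, 21 of 36 Prss genes, median 0.94, and 16 of 17 Tmprss genes, median 0.84. In the Klk1b subgroup 7 of 13 were called, with a median of 1.15. The count of 51 members fell whichever 4-month library was left out, and each such fit leaves 1 library in a group. How the count over all genes changed in those fits was not examined. The genes called in each of the 12 fits that left out a library were 11, namely Klk1b9, Klk1b26, Klk7, Prss23, Prss32, Prss41, Prss57, Tmprss4, Tmprss7, Tmprss13 and Tmprss15.

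The count at 4 months also followed the depth. Of the 27 genes with fewest calls 12 were called, of the middle 27 genes 17, and of the 26 with most calls 22, while at P40 the counts were 24, 27 and 26. The median log2 odds ratio at 4 months was 0.98, 1.01 and 0.84 in those classes, with median standard errors of 0.45, 0.41 and 0.26. At P40 the median log2 odds ratio was lower at greater depth, at 0.92, 0.79 and 0.74. Counts over all genes in such depth classes were not made. In all, 50 genes were called in both mutants, 27 at P40 only, 1 (Prss22) at 4 months only and 2 in neither. Of all genes 76.5% rose at P40 and 58.8% at 4 months, and the share called in both was not computed. Being called in 1 comparison only is no test of a difference. In the test of the difference between the mutant effects 0 of 80 passed, as did 0% of all genes, and 0 had an unadjusted p under 0.05. limma gave 0 adjusted and 9 unadjusted at a pseudocount of 0.1 and 8 at 0.5, and edgeR gave 0 and 0. Unadjusted shares of all genes, and their shares in these fits, were not examined. Age, mutation and set of libraries differ together in that contrast.

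**Figure D2:**
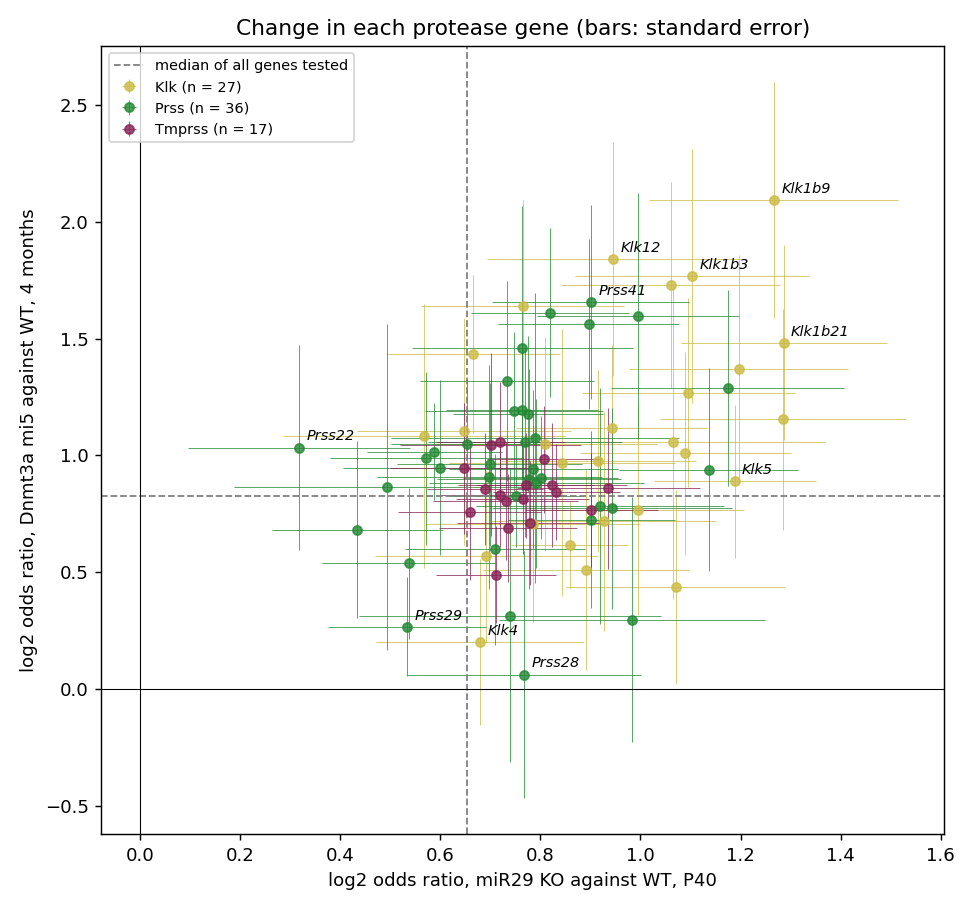
Log2 odds ratio of methylation in the miR29 knockout at P40 (x axis) and in Dnmt3a mi5 at 4 months (y axis), each against WT of the same age, for 27 Klk, 36 Prss and 17 Tmprss genes; bars are standard errors and dashed lines the medians over all genes tested, 0.65 and 0.83. All 80 points lie above 0 on both axes, and Klk1b9 has the largest value at 4 months.

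Because most genes rose, the rise was also measured relative to the median gene, by centring each library on its own median. That moved the median over all genes from 0.65 to -0.03 at P40 and from 0.83 to -0.05 at 4 months. Relative to the shift, 2 protease genes, Klk1b21 and Klk5, were higher at P40 and 0 lower, while 199 of all genes were higher and 711 lower. At 4 months 0 passed in either direction, and 0 and 7 of all genes passed. After centring, the unadjusted p was under 0.05 in 13 of 80 protease genes at P40, against 4095 of all 19826 genes. At 4 months it was under 0.05 in 8 of 80, against 1803 of 19826. Centred log2 odds ratios were positive in 65 of 80 protease genes at P40 and in 49 of 80 at 4 months, compared with 42.1% of all genes at each age. By family the centred medians were 0.26 for Klk, 0.08 for Prss and 0.05 for Tmprss at P40, and 0.19, 0.07 and -0.03 at 4 months, so that the Tmprss median turned negative there. The subgroup Klk1b had 0.37 and 0.28. Of the genes named by the rule given below, Klk6, Klk7, Prss2, Prss8, Prss22, Prss23, Prss29, Prss35, Tmprss3 and Tmprss11d were negative after centring at P40. At 4 months Klk4, Klk10, Klk13, Klkb1, Prss8, Prss12, Prss29, Prss50, Prss56, Tmprss2, Tmprss3, Tmprss5, Tmprss6, Tmprss11a, Tmprss11e and Tmprss15 were. Among genes added after their values were seen, Klk1b8 was negative at P40 (-0.10) and Prss28 at 4 months (-0.81). Genes mentioned only for their place in the genome are not listed.

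Among proteases known in the nervous system, Klk8 (neuropsin, a protease of synaptic plasticity) rose in both mutants. Its level was 1.40%, 1.69%, 1.83% and 1.30% in P40 WT and 2.87%, 3.43%, 3.38% and 1.98% in the knockout. It was 1.41% and 1.74% in 4-month WT and 3.26% and 3.55% in Dnmt3a mi5. The mutant libraries were above the WT ones at each age without overlap, and the lowest knockout value was again that of replicate 4. The log2 odds ratio was 0.94 ± 0.19 (SE; adjusted p = 0.000251) at P40 and 1.12 ± 0.35 (adjusted p = 0.0125) at 4 months.

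Prss12 (neurotrypsin), which cleaves agrin at synapses, spanned 1.17% to 1.64% in P40 WT and 1.93% to 2.71% in the knockout. At 4 months it was 1.44% and 1.66% in WT and 2.70% and 2.72% in the mutant. The groups did not overlap, and the odds ratios, 0.75 ± 0.13 on the log2 scale at P40 (adjusted p = 9.37e-05) and 0.83 ± 0.22 at 4 months (adjusted p = 0.00522), stood near the medians of all genes. Klk6 (neurosin), made by oligodendrocytes, was less clear. It was 1.14%, 1.84%, 1.37% and 1.10% in P40 WT and 2.62%, 1.85%, 2.40% and 1.36% in the knockout. Knockout replicate 4 lay inside the WT range and replicate 2 just above its top, and the gene passed, with a log2 odds ratio of 0.65 ± 0.21 (adjusted p = 0.0101). At 4 months Klk6 was 1.06% and 0.980% in WT and 2.01% and 2.30% in the mutant, a log2 odds ratio of 1.10 ± 0.49 that missed the threshold (adjusted p = 0.0566). Tmprss5 (spinesin), known from spinal cord, was among the highest of the family, at 2.48% to 2.99% in P40 WT and 3.40% to 4.89% in the knockout. It rose at both ages, by log2 odds ratios of 0.72 ± 0.12 (adjusted p = 6.59e-05) and 0.83 ± 0.22 (adjusted p = 0.00561).

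The Klk1b genes, whose products include EGF-binding proteins, held 4 of the 5 largest rises at P40. Klk1b21 went from 1.68%, 1.71%, 1.34% and 1.33% in WT to 4.32%, 4.21%, 3.22% and 2.65% in the knockout, a log2 odds ratio of 1.29 ± 0.21 (adjusted p = 5.87e-05). The lowest knockout library was well above the highest WT library. Relative to the median gene its log2 odds ratio was 0.60 (adjusted p = 0.0383). The RefSeq annotation of GRCm38.p6 has Klk1b21 overlapping Klk1b26 and Klk1b27, but the deposited rows held similar numbers of calls, with means of 2414, 2598 and 2384 per library, and whether they share calls was not tested. Klk1b22, an EGF-binding protein, was 0.823% to 1.65% in P40 WT and 2.36% to 3.47% in the knockout, a log2 odds ratio of 1.28 ± 0.25 (adjusted p = 0.000158). Klk1b1 was 1.55% to 2.69% and 3.03% to 5.71% in these groups, with a log2 odds ratio of 1.20 ± 0.22 (adjusted p = 0.000115). In both genes the groups did not overlap.

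Klk1b9, another EGF-binding protein, had the largest rise of all members at 4 months. It was 0.892% and 0.804% in WT and 3.6% and 3.43% in Dnmt3a mi5, a log2 odds ratio of 2.09 ± 0.51 (adjusted p = 0.00355). At P40 it was 0.921%, 1.09%, 1.47% and 0.872% in WT and 3.05%, 3.19%, 2.32% and 1.67% in the knockout, a log2 odds ratio of 1.27 ± 0.25 (adjusted p = 0.000196). Its 6 mutant libraries were all above its 6 WT libraries. Klk1b26, also an EGF-binding protein, showed the same order, with group means of 1.05% ± 0.505 and 3.48% ± 0.152 (SD, n = 2) at 4 months and a log2 odds ratio of 1.73 ± 0.44 (adjusted p = 0.00428).

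Other Klk1b genes varied more between replicates. Klk1b3 was 4.43% in mutant replicate 1 and 1.74% in replicate 2 at 4 months, against 0.887% and 0.951% in WT. Its log2 odds ratio was 1.77 ± 0.54 (adjusted p = 0.0111), with mutant libraries far apart. Klk1b22 at 4 months was 1.70% and 4.20% in the mutant and 1.53% and 1.15% in WT, a log2 odds ratio of 1.15 ± 0.47 (adjusted p = 0.0424). Klk1b8 passed in neither comparison: its knockout libraries, from 1.68% to 4.04%, overlapped WT, from 1.21% to 2.63%.

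**Figure D3:**
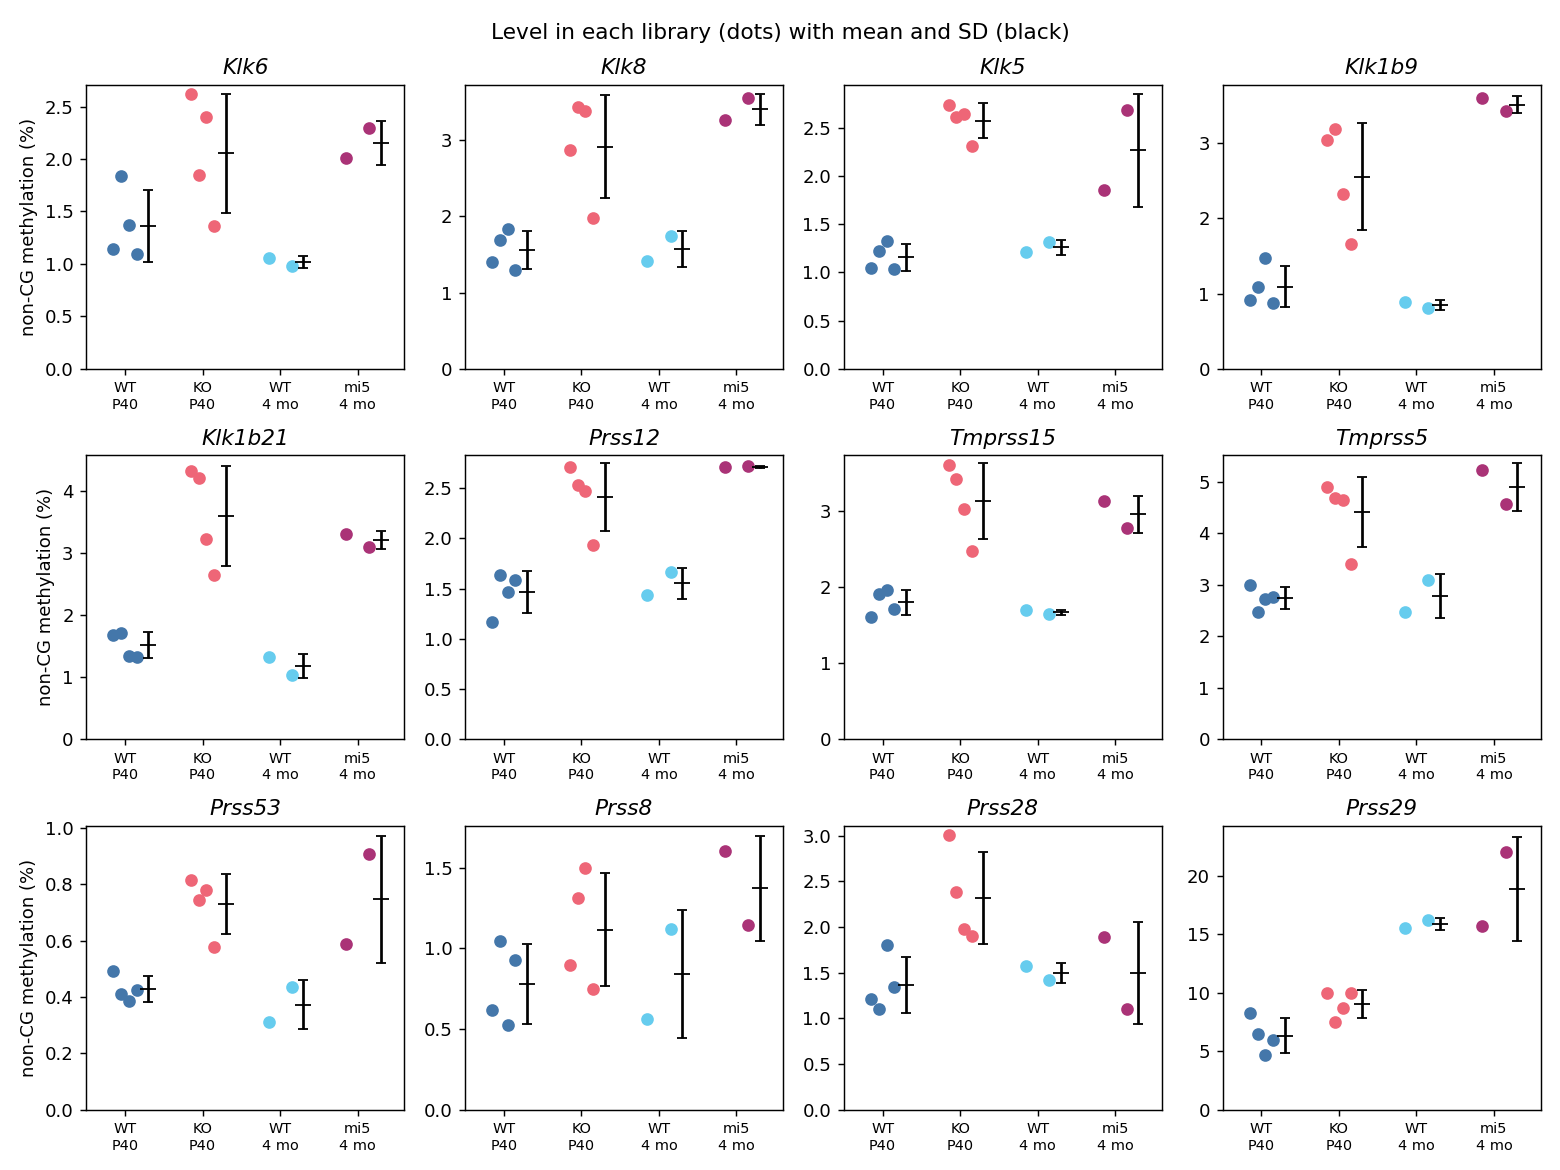
Non-CG methylation in percent in each library (dots), with the group mean and SD (black), for 12 protease genes in P40 WT and miR29 knockout (n = 4 each) and 4-month WT and Dnmt3a mi5 (n = 2 each); vertical scales differ. In Klk1b9 and Klk1b21 every mutant library lies above every WT library, while in Prss29 both 4-month groups both lie above P40.

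Of the kallikreins of skin and other epithelia, Klk5, which starts the cascade that sheds skin cells, rose most at P40. It was 1.04%, 1.22%, 1.32% and 1.03% in WT and 2.73%, 2.61%, 2.64% and 2.31% in the knockout. The groups were far apart and the replicates close, with a log2 odds ratio of 1.19 ± 0.16 (adjusted p = 5.71e-05), and of 0.50 relative to the median gene (adjusted p = 0.045). Klk7, which Klk5 activates, rose by a log2 odds ratio of 0.67 ± 0.17 at P40 (adjusted p = 0.00197) and 1.43 ± 0.34 at 4 months (adjusted p = 0.00334). Klk14, of the same cascade, passed at P40 (log2 odds ratio 1.09 ± 0.21, adjusted p = 0.000172) and not at 4 months (1.01 ± 0.43, adjusted p = 0.0524).

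Klk12 had the second largest value at 4 months, from 1.5% and 0.549% in WT to 4.18% and 3.39% in Dnmt3a mi5, a log2 odds ratio of 1.84 ± 0.50 (adjusted p = 0.00574). Its WT libraries at 4 months were further apart than those at P40, which ran from 0.914% to 1.37%. Klk11 rose at both ages, with 4-month means of 1.33% ± 0.107 and 4.03% ± 1.06 and a log2 odds ratio of 1.64 ± 0.45 (adjusted p = 0.00617). Klk4, a protease of tooth enamel, did not pass at 4 months. It was 3.10% and 2.16% in WT and 2.84% and 3.30% in the mutant, overlapping values with a log2 odds ratio of 0.20 ± 0.35 (adjusted p = 0.63). At P40 it rose, from a mean of 1.43% ± 0.449 to 2.34% ± 0.226. The test of the difference between the mutants gave -0.48 ± 0.41 on the log2 scale for Klk4 (adjusted p = 0.998). Klk10 and Klk13 rose at P40 (adjusted p = 0.000276 and 0.0011) and missed the threshold at 4 months (adjusted p = 0.362 and 0.185).

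The 2 kallikreins that release kinins rose at both ages. Tissue kallikrein, Klk1, went from a mean of 1.67% ± 0.258 to 3.07% ± 0.631 at P40 and from 1.60% ± 0.44 to 3.09% ± 0.226 at 4 months. Plasma kallikrein, Klkb1, which lies apart from the Klk cluster, was 1.66% to 2.22% in P40 WT and 2.93% to 3.94% in the knockout, without overlap. Its log2 odds ratio was 0.86 ± 0.12 (adjusted p = 5.71e-05) at P40 and 0.61 ± 0.19 (adjusted p = 0.011) at 4 months.

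Among digestive enzymes, the pancreatic trypsin gene Prss3 rose in both comparisons, by log2 odds ratios of 1.17 ± 0.23 (adjusted p = 0.000208) and 1.29 ± 0.42 (adjusted p = 0.0146). Its relative Prss1 rose at P40 (1.14 ± 0.18, adjusted p = 5.83e-05) and missed the threshold at 4 months (0.94 ± 0.44, adjusted p = 0.0691). Prss2 rose at P40 by 0.60 ± 0.19 (adjusted p = 0.00921), with knockout replicate 4, at 2.18%, inside the WT range of 1.76% to 2.55%. These genes lie within the T-cell receptor beta locus. Tmprss15 (enteropeptidase), which activates trypsinogen in the gut, was the member with most calls. It was 1.61% to 1.96% in P40 WT and 2.47% to 3.61% in the knockout, with a log2 odds ratio of 0.83 ± 0.13 (adjusted p = 5.71e-05). At 4 months it was 1.70% and 1.65% in WT and 3.13% and 2.79% in the mutant, with 0.84 ± 0.21 (adjusted p = 0.00362).

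Log2 odds ratios of the membrane-anchored Tmprss proteases at P40 had quartiles of 0.71 and 0.81, against 0.80 and 1.09 for Klk and 0.69 and 0.84 for Prss genes. Tmprss6 (matriptase-2), which cuts hemojuvelin in iron control, rose by log2 odds ratios of 0.90 ± 0.13 at P40 and 0.77 ± 0.24 at 4 months (adjusted p = 5.71e-05 and 0.0131). Tmprss3, a gene of hearing, rose by 0.69 ± 0.12 and 0.86 ± 0.24 (adjusted p = 6.81e-05 and 0.00652). Tmprss13 rose by 0.81 ± 0.12 and 0.98 ± 0.23 (adjusted p = 5.71e-05 and 0.00321). The 7 Tmprss11 genes, airway and epithelial proteases that lie side by side, spanned only 1.32% to 1.71% in P40 WT, and all 7 rose in both comparisons, where 76.5% and 58.8% of all genes did. Tmprss2, an airway protease that activates viral surface proteins, was the 1 Tmprss gene not called at 4 months: WT was 2.35% and 2.57% and the mutant 3.49% and 3.33%, which did not overlap but missed the threshold (0.49 ± 0.21, adjusted p = 0.0508). Tmprss9, a polyserase, was the lowest of its family, with a mean of 0.831% ± 0.159 in P40 WT and 1.33% ± 0.208 in the knockout, and rose at both ages (adjusted p = 0.00184 and 0.029).

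The remaining Prss genes held the extremes of the family. Prss53, a polyserase, was lowest in every group: 0.491%, 0.410%, 0.384% and 0.427% in P40 WT and 0.817%, 0.745%, 0.778% and 0.576% in the knockout. These groups did not overlap, and the log2 odds ratio was 0.79 ± 0.29 (adjusted p = 0.0179). At 4 months WT was 0.311% and 0.435% and the mutant 0.588% and 0.907%, a log2 odds ratio of 1.07 ± 0.62 that missed the threshold (adjusted p = 0.137). Prss53 overlaps Zfp646, a gene at 0.369% in P40 WT. Next to it Prss8 (prostasin, an activator of the epithelial sodium channel) was also low, with means of 0.781% ± 0.246 and 1.11% ± 0.35 at P40, and overlaps Kat8, at 0.561%. Prss8 overlapped between genotypes at P40 (adjusted p = 0.145) and missed the threshold at 4 months (adjusted p = 0.282).

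Prss56, a gene of eye size, was 1.05% and 1.24% in 4-month WT and 0.520% and 1.72% in the mutant. Its mutant replicates lay on either side of WT, with a log2 odds ratio of 0.31 ± 0.63 (adjusted p = 0.671). Prss22 (tryptase epsilon) overlapped at P40, with 0.902% to 1.99% in WT and 1.82% to 2.11% in the knockout (adjusted p = 0.193). At 4 months it was 1.73% and 0.941% in WT and 3.22% and 2.47% in the mutant (adjusted p = 0.0486). The test of the difference gave 0.72 ± 0.49 on the log2 scale (adjusted p = 0.998).

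Prss41 and Prss32, which are neighbours, rose by log2 odds ratios of 1.66 ± 0.41 and 1.56 ± 0.36 at 4 months (adjusted p = 0.00402 and 0.00317). They differ in level: Prss41 was 1.002% ± 0.116 in P40 WT and Prss32 2.12% ± 0.3. Prss23, a secreted protease, was 2.81% and 2.12% in 4-month WT and 4.89% and 4.98% in the mutant, a log2 odds ratio of 1.02 ± 0.21 (adjusted p = 0.003). Prss35, known from ovary, rose at both ages (adjusted p = 0.000738 and 0.00532), as did Prss16, the thymus-specific serine protease (adjusted p = 0.00273 and 0.0435). Prss50, known from testis, was the second highest member in P40 WT, at 2.82% ± 0.66, and rose at P40 (adjusted p = 0.00163) but missed the threshold at 4 months (adjusted p = 0.204). Prss21 (testisin) did the same (adjusted p = 0.00891 and 0.106).

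Prss29, an implantation serine protease of the uterus, stood apart from every other member. It was 8.29%, 6.46%, 4.69% and 5.95% in P40 WT and 9.96%, 7.53%, 8.70% and 10.01% in the knockout. At 4 months it was 15.6% and 16.3% in WT and 15.7% and 22.0% in Dnmt3a mi5. All 4-month libraries exceeded all P40 libraries, while the genotypes overlapped at each age. Among all 19826 genes it ranked 2 in P40 WT, behind Asgr1, and 1 in the other groups. The 4-month values rest on 1329 to 1844 calls per library. The 95% Wilson intervals, which cover counting error only, were 13.9% to 17.4% and 14.7% to 18.0% in WT, and 14.1% to 17.6% and 19.9% to 24.4% in the mutant.

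Between the WT groups Prss29 was the only one of the 80 that passed, with a log2 odds ratio, 4 months over P40, of 1.47 ± 0.19 (adjusted p = 0.000507). Of all genes 0.131% rose and 0% fell in this comparison, and 2 of the 80 had an unadjusted p under 0.05. The 4-month WT libraries were above all P40 WT libraries in 4 members and below them in 11, against 6.03% and 12.1% of all genes. With libraries centred the log2 odds ratio was 1.56 and the call was lost (adjusted p = 0.0614). Age and set of libraries cannot be told apart. Between genotypes the log2 odds ratio of Prss29 was 0.53 ± 0.16 at P40 (adjusted p = 0.00497) and 0.26 ± 0.21 at 4 months (adjusted p = 0.276), the latter -0.02 without mutant replicate 2. Its neighbour Prss28, also an implantation protease, ranked between 7483 and 13339 of all genes, with means of 1.36% ± 0.309, 2.32% ± 0.506, 1.498% ± 0.113 and 1.498% ± 0.561 in P40 WT, knockout, 4-month WT and mutant. Prss28 rose at P40 (adjusted p = 0.00614), and its mutant value at 4 months, 1.89% and 1.10%, overlapped WT (adjusted p = 0.924).

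Spread among the paralogs was dominated by Prss29. The coefficient of variation of the level over the 80 genes within a library averaged 0.453 in P40 WT, 0.382 in the knockout, 1.02 in 4-month WT and 0.663 in Dnmt3a mi5. Without Prss29 it was 0.323, 0.290, 0.372 and 0.345, below the 0.540, 0.566, 0.558 and 0.577 over all genes. Without that gene, which was left out after its values were seen, the members differed less from each other than genes at large in each group.

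**Figure D4:**
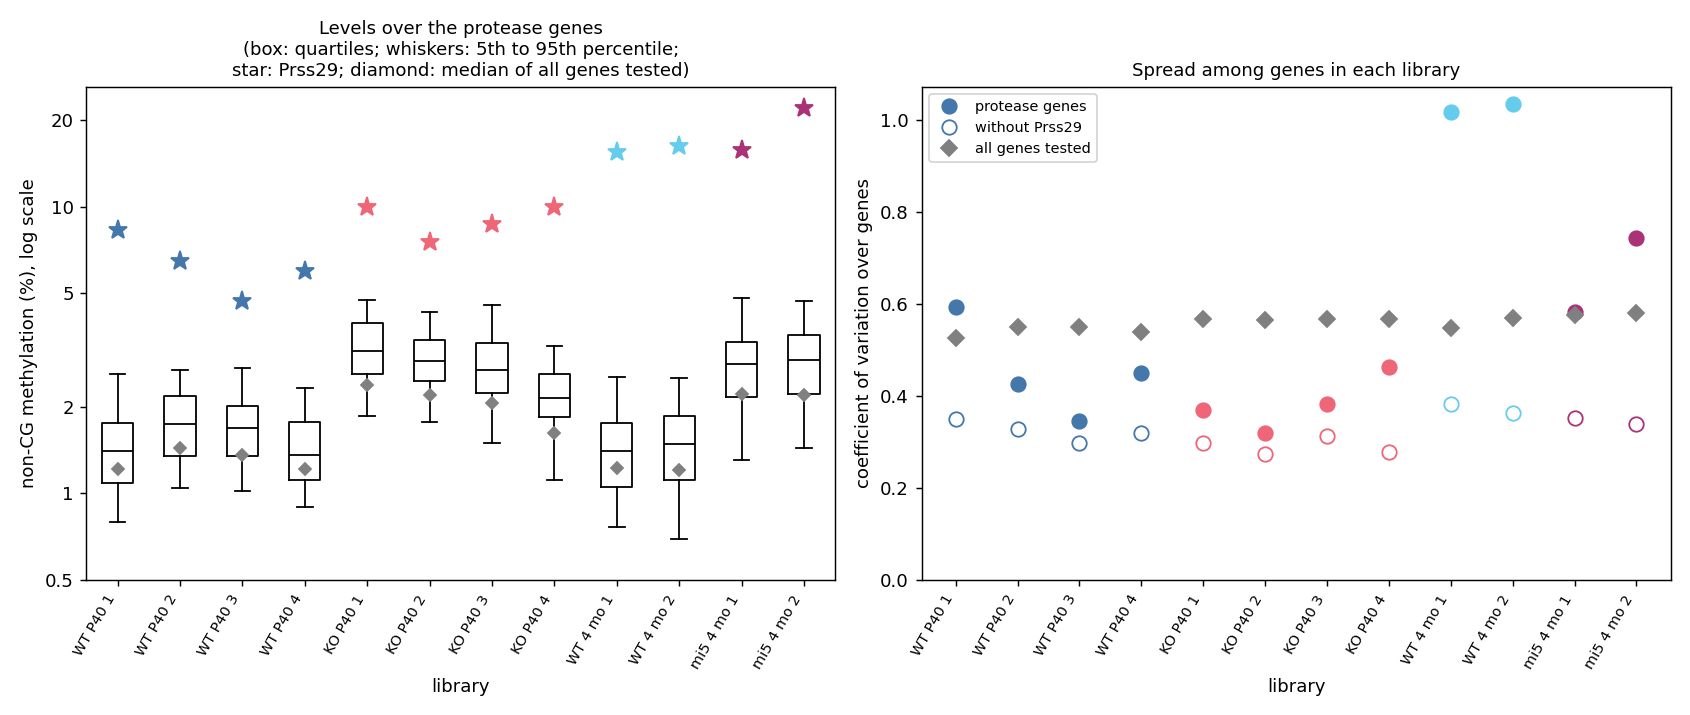
Left, non-CG methylation in percent (log axis) over the 80 protease genes in each library, as quartile boxes with whiskers from the 5th to the 95th percentile, stars for Prss29 and diamonds for the median of all genes tested; right, the coefficient of variation over genes in each library. Open circles, without Prss29, lie below the diamonds of all genes in every library, and the filled circles of 4-month WT reach 1.02 to 1.03.

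How much of the remaining spread was more than replicate error differed between families. Tmprss group means ran from 0.831% to 2.74% in P40 WT, and replicate error accounted for 6.89% of their variance. Klk means ran from 0.980% to 2.08%, and replicate error accounted for 37.2% of the variance in P40 WT and 84.4% in Dnmt3a mi5. These shares include shifts common to all genes of a library, which do not spread group means, so they can be too high. Klk genes also rested on fewer calls than Tmprss genes, so family and depth cannot be told apart in this contrast. For the Klk1b subgroup in Dnmt3a mi5 the variance expected from replicate error was 249% of that seen. Differences in level among Klk1b paralogs were not detectable at this depth and n in that group.

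Many members lie side by side in the genome. In the annotated order of GRCm38.p6, 60 members lay in 11 neighbourhoods of members with at most 3 other protein-coding genes between adjacent ones, and 20 lay alone. Without Prss29 the standard deviation of levels in P40 WT was 0.357 percentage points within neighbourhoods and 0.434 over the same genes as a whole. At 4 months in WT the values were 0.433 and 0.446. The 26 genes of the Klk cluster spanned 0.980% to 2.08% in P40 WT. The group of Prss42 to Prss46 with Prss50, testis genes, spanned 1.38% to 2.82%, and Prss36, Prss53 and Prss8 spanned 0.428% to 1.15%. No test was made of these differences.

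Across the 80 genes the order of levels was related between groups, less closely by rank than over all genes. Pearson's r was 0.87 and Spearman's rho 0.74 between P40 WT and 4-month WT, and 0.87 and 0.78 between the mutants, with Prss29 included. Over all genes the values were 0.92 and 0.95, and 0.94 and 0.96. Between WT and mutant of the same age, r was 0.95 and rho 0.88 at P40, and r was 0.94 and rho 0.61 at 4 months, against 0.97 and 0.98, and 0.93 and 0.95, over all genes. The log2 odds ratios of the 2 comparisons, which share no libraries, were related weakly, with r = 0.36 and rho = 0.27, against 0.41 and 0.39 over all genes. These are correlations across genes, which are not independent replicates and share libraries and depth.

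Related proteases and the partners of these enzymes also rose in most cases, as did most genes. A list of 75 other proteases, receptors, inhibitors and substrates had 64 genes with enough calls, of which 59 rose at P40 and 45 at 4 months, and 0 fell, where 76.5% and 58.8% of all genes rose. The median log2 odds ratios were 0.71 and 0.91, against 0.65 and 0.83 over all genes. By role, to be read against the same shares of all genes, of 35 other trypsin-fold proteases 31 and 23 rose, of 14 inhibitors 13 and 9, and of 12 substrates and partners 12 and 10. The protease-activated receptors F2r, F2rl1 and F2rl2, which such enzymes switch on by cutting, rose at both ages. Corin, which processes a cardiac peptide hormone, rose from 2.09% ± 0.214 to 3.50% ± 0.45 at P40 (adjusted p = 5.71e-05) and from 1.88% ± 0.0625 to 3.48% ± 0.0516 at 4 months (adjusted p = 0.003). The inhibitors Serpine2 and Spink5 had log2 odds ratios of 0.78 ± 0.12 and 0.87 ± 0.14 at P40 (adjusted p = 5.71e-05 for each). Spink1, an inhibitor of trypsin, and Gzma, a protease of cytotoxic lymphocytes, had 1.28 ± 0.24 and 1.20 ± 0.25 at 4 months (adjusted p = 0.003 for each).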

How the data were processed

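Cortical DNA was bisulfite sequenced, and reads were processed with BSMAP on mm9, per the submitters' processing notes; versions and how calls were assigned to transcripts are not given in the sources used here. The authors deposited 12 tables of 36672 RefSeq transcript rows, each with a count of methylated non-CG calls. The total calls the authors deposited are treated as an expected count, since only 35.7% to 62.2% of values are whole; they were rounded. Identifiers were named from RefSeq (GRCm38.p6). Rows without a symbol (300) or with a repeated identifier (1395) were left out, and the transcript with most calls stood for its gene. This gave 23882 genes, of which 19826 had 500 or more calls in every library.

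Groups came from the labels. For each gene, methylated and total calls of the 12 libraries entered a quasi-binomial logistic regression on group, with dispersion moderated by limma 3.58.1 (squeezeVar with trend, robust) in R 4.3.3. Tests were two-sided, with Benjamini-Hochberg adjustment over all 19826 genes and a threshold of 0.05. Effects are log2 odds ratios ± SE. The model was also run on simulated data with few changed genes and no shift shared by the genes of a library. Most genes rose in the real data, so that run does not check the model in this setting. Median dispersion was 5.13. Alternatives were limma on log2(percent + 0.1) and + 0.5, edgeR 4.0.16, centring, minimums of 2000 and 100 calls, only the groups compared, a replicate block, a term for Y-gene coverage, another row per gene, repeated identifiers kept and each library left out; the spread without Prss29 was added after its values were seen. Tables, alignments and figures were made with pandas 2.3.3, scipy 1.17.1, numpy 2.4.6, Biopython 1.88 and matplotlib 3.10.9 in Python 3.11.15.

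The members, lists and rules were chosen with earlier results of these data known. Genes named are the 5 largest called changes in each direction per comparison, the 5 highest and 5 lowest members, members with an established role, members called for age or the difference, and the 3 smallest p of the partner list per comparison; Prss28, Klk1b8 and Prss57 were added after their values were seen.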

Additional observations from a re-analysis of the deposited data

Results flagged for a closer look

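Among 96 groups of 4 libraries examined for the named genes, 7 held a library far from the other 3; chance flags about 1 in 20 groups. In P40 WT, Klk13 was 0.8403% in replicate 1 against 1.02% to 1.04% in the others, and Tmprss2 was 2.5916% in replicate 2 against 2.003% to 2.08%. In the knockout, replicate 4 was low for Tmprss4 (2.6148% against 3.02% to 3.09%), Tmprss5 (3.4002% against 4.65% to 4.89%) and Tmprss9 (1.0204% against 1.39% to 1.46%). Replicate 4 was also the lowest knockout library over all genes, at 1.72%. Klk14 was 2.5276% in knockout replicate 3 against 2.04% to 2.11%, and Prss35 was 3.0088% in replicate 1 against 2.59% to 2.66%.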

How the results depend on the processing

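The count of members called at P40 was 76 with limma at either pseudocount, 78 with edgeR and 74 to 78 with a library left out; at 4 months it was 63 with limma and with edgeR, 65 with only the groups compared and 14 to 57 with a library left out. For these fits, and for the minimum of 2000 calls and the replicate block below, shares of all genes were not examined. Centring each library on its median gene left 2 called at P40, 0 at 4 months and 0 for age. A minimum of 2000 calls kept 32 members, of which 32 were called at P40, 29 at 4 months and 0 for age, since Prss29 is not among them; their median was 1.5573% in 4-month WT and 2.7927% in Dnmt3a mi5, and their coefficient of variation 0.2823, 0.2696, 0.3317 and 0.3243 in P40 WT, knockout, 4-month WT and Dnmt3a mi5. Without Prss29 it was 0.3231, 0.2905, 0.3719 and 0.3449. Same-numbered libraries did not deviate together (r from -0.048 to 0.101 at P40, -0.084 at 4 months), so the numbers were not taken to pair them; with the replicate block 77 members were called at P40, 56 at 4 months, 0 for the difference and 1 for age. Among the genes named by the rule above, signs turned mainly with centring, which measures a gene against the median gene. At P40 the centred log2 odds ratio was -0.0489 for Klk6, -0.0006 for Klk7, -0.1049 for Prss2, -0.3649 for Prss22, -0.1067 for Prss23, -0.1517 for Prss29, -0.0290 for Prss35, -0.1792 for Prss8, -0.0359 for Tmprss11d and -0.0099 for Tmprss3. At 4 months it was -0.4378 for Klk10, -0.1531 for Klk13, -0.6712 for Klk4, -0.2577 for Klkb1, -0.0453 for Prss12, -0.6080 for Prss29, -0.2724 for Prss50, -0.5584 for Prss56, -0.0042 for Prss8, -0.0589 for Tmprss11a, -0.1825 for Tmprss11e, -0.0263 for Tmprss15, -0.3814 for Tmprss2, -0.0148 for Tmprss3, -0.0432 for Tmprss5 and -0.1056 for Tmprss6. At 4 months Prss56 was -0.2266 and -0.1275 with limma at pseudocounts of 0.1 and 0.5 and ran from -1.1577 (without mutant replicate 2) to 0.5837 with a library left out; Klk4 ran from -0.0136 (without WT replicate 2) to 0.5237, and Prss29 from -0.0198 (without mutant replicate 2) to 0.578. The difference between mutants for Prss29 ran from -0.5535 to 0.0443 (without mutant replicate 1). The cause was not tested. Of the other values for named genes, 1896 kept direction and side of the threshold, 133 fell below it and 42 passed it. Depth limits the Klk genes most, at a median of 1411 calls in Dnmt3a mi5.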
